A study of Rattus norvegicus with 115 samples.

Results

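Microbeam radiation therapy (MRT) gives X-rays as an array of narrow parallel beams, so that tissue in the beam paths takes a very high peak dose and the tissue between them a lower valley dose. The brain hemisphere opposite a 9L tumour was compared between MRT-treated and untreated rats 48 h after irradiation. The members were the 7 arrays labelled MRT contralateral (rats 19, 20, 21, 22, 23, 25 and 26) and the 4 labelled untreated contralateral (rats 15, 16, 17 and 18) at that time, chosen by their labels. They were 11 of the 115 arrays of the series and 11 of its 56 contralateral arrays. All 11 were Fisher rats that carried a tumour grown from 100000 9L cells, a rat glioblastoma line, placed in the right caudate nucleus, so the untreated animals are tumour-bearing and not healthy. Treatment followed implantation by 10 days, with a peak dose of 400 Gy and a valley dose of 18 Gy. Each array measured total RNA of one rat on Affymetrix 3' expression probe sets. Arrays at 6 h (9 MRT, 5 untreated) and at 8 d (6 MRT, 4 untreated) and the 3 contralateral arrays at 48 h after a broad beam (BB), written as 17,4 Gy in the labels, were used for comparison.

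Radiation breaks DNA, and p53 then switches on genes that stop the cell cycle, repair DNA or start cell death. In the brain, injury is also met by microglia, the resident phagocytes, and by astrocytes, which enlarge and make more intermediate filament protein when reactive. Phagocytes that have been activated display peptides to T cells on class II molecules of the major histocompatibility complex (MHC), called RT1 in rats, and type I and II interferons induce large sets of antiviral and antigen presentation genes. Oligodendrocyte precursors are the main dividing cells of the adult brain parenchyma.

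The array of untreated rat 18 stood apart from the others. It correlated at 0.889 to 0.904 (Pearson's r over 31042 probe sets) with the other 10 arrays, while the untreated rats 15, 16 and 17 correlated at 0.990 to 0.993 with each other and at 0.974 to 0.989 with the MRT arrays. Its median intensity was 165, against 122.5 to 131 on the others, its beta-actin 3' minus 5' signal was 0.24 log2 against 1.35 to 2.71, and the mean of its astrocyte markers was 10.01 log2 against 11.08 to 11.33. The SD of its log2 values over probe sets was 1.99, against 2.26 to 2.32 on the others. Rat 18 also correlated less with the 4 untreated tumours of that time (0.810 to 0.863). Rats 15, 16 and 17 did so at 0.878 to 0.950. The correlation of rat 18 was lower with all arrays compared, so it cannot tell whether that array held tumour RNA. This was not tested. Because rat 18 stood apart, counts are given with and without it. Of the 72 genes whose values are given, 68 were called with and without rat 18. Only genes called with or without rat 18 were given values, so the 68 follow in part from that choice. With the striatal mean, the Gapdh 3' minus 5' signal or the choroid plexus mean as a covariate, 359, 381 and 423 probe sets were called, against 462 without a covariate, and 5, 6 and 3 of the 72 genes lost their call. Neuronal marker means lay between 11.14 and 11.55 log2 on all 11 arrays. The 6 markers of 9L cells averaged 6.00 in rat 18, the highest of the 11 arrays, and 4.94 to 5.66 on the others. In the untreated tumours they averaged 8.68 to 9.84. Markers of striatal neurons (mean 8.84 to 10.90) and of choroid plexus (5.99 to 8.49) varied widely in both groups. MRT rats 23, 25 and 26 correlated at 0.995 to 0.997 with each other and at 0.982 to 0.987 with the other MRT rats.

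Differences are log2 MRT minus log2 untreated intensity with the standard error of the limma fit, and a probe set or gene was called at a Benjamini-Hochberg adjusted p under 0.05 over all 31042 probe sets. In the 11 arrays, 368 probe sets were higher after MRT and 94 lower. Without rat 18 the counts were 934 and 360, and all 462 probe sets called with rat 18 were called in the same direction without it. The median difference of all genes was -0.11 with rat 18 and -0.00 without it. With the median of each array set equal, the calls were 565 higher and 543 lower with rat 18, and 803 and 565 without it. In a fit that shares its spread over 39 arrays, 1958 were higher and 5671 lower with rat 18, and 1043 and 679 without it. Of 14217 genes, each represented by 1 probe set, 277 (1.95%) were higher and 48 (0.338%) lower. Without rat 18, 660 (4.64%) were higher and 182 (1.28%) lower.

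Class II antigen presentation genes were among the largest rises, led by RT1-Da and RT1-Bb. Of 19 measured antigen presentation genes, 10 rose and 0 fell, with a list median of 1.03 against -0.11 for all genes. Without rat 18, 14 rose, with a median of 1.29 against -0.00. Of these, 5 encode the class II molecules and their chaperone: RT1-Da and RT1-Db1 (the rat DR chains), RT1-Ba and RT1-Bb (the DQ-like chains) and Cd74, the invariant chain that guides class II molecules to the peptide-loading compartment. In the immediate promoters of class II genes, an X box and a Y box, the second an inverted CCAAT sequence, are known to bind the factors that recruit the class II transactivator. The stretches below, from RefSeq promoters of build GRCr8, are shown because these 4 chains moved together. Capitals mark TAGCAAC, the core letters of an X box, and CTGATTGG, a Y box.
RT1-Da: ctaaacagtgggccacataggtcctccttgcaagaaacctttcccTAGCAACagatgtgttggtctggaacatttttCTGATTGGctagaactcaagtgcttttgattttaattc
RT1-Db1: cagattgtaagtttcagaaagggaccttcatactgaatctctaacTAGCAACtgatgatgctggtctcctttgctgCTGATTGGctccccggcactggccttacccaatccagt
RT1-Bb: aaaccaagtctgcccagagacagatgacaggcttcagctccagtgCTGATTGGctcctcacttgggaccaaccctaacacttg
RT1-Ba: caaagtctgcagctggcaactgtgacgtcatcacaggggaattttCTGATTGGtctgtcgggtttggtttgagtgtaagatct

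The RT1-Da stretch is chr20:4515286-4515400 on the plus strand, RT1-Db1 chr20:4560208-4560321 on the minus strand, RT1-Bb chr20:4604145-4604227 on the minus strand and RT1-Ba chr20:4576966-4577048 on the plus strand. All 4 lie upstream of the annotated gene start. CTGATTGG was found in all 4 promoters (from 250 bases before the gene start to 50 after, both strands), and in 3.5% of all 33469 promoters of that length. TAGCAAC was found in 2 of the 4, RT1-Da and RT1-Db1, and in 3.58% of all promoters. Counted by gene, 4.96% of the measured genes with a promoter held CTGATTGG and 3.74% held TAGCAAC. Both strings were chosen after these promoters had been read, CTGATTGG overlaps the CCAAT box, and a CCAAT box on either strand was found in 37.5% of all promoters. In the promoter of Cd74, which also rose, TAGCAAC was found at -72 from the gene start, but CTGATTGG was not found.

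RT1-Da read 106, 130, 201 and 335 in untreated rats 15, 16, 17 and 18, and 2798 to 4132 (median 3458) in the 7 MRT rats. The groups were far apart, the highest untreated value being that of rat 18 and the 3 lowest MRT values those of rats 23, 25 and 26. The RT1-Da difference was 4.26 ± 0.26 (SE; limma adjusted p = 4.02e-07), and 4.58 ± 0.18 without rat 18. RT1-Bb read 107, 75, 131 and 222 without treatment and 1725 to 3181 (median 2408) after MRT, a difference of 4.19 ± 0.26. Cd74 read 213, 210, 294 and 386 without treatment and 2704 to 4628 (median 2959) after MRT, a difference of 3.66 ± 0.21. All 3 genes had rats 23, 25 and 26 near the bottom of the MRT range, still several times above every untreated rat. RT1-Db1 rose by 3.62 ± 0.18 and RT1-Ba by 3.40 ± 0.30.

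RT1 genes are polymorphic and have close copies, and the probe sets did not all respond. A second RT1-Db1 probe set was 2.00 higher (limma adjusted p under the threshold), while the other RT1-Bb probe set differed by -0.42 ± 0.14 (limma adjusted p = 0.178) and the 3 other RT1-Ba probe sets by -0.18, -0.64 and -0.41, none of them called. Which copies the called probe sets read was not tested. Ciita, the class II transactivator, was called only without rat 18: it read 30, 37, 25 and 79 in the untreated rats and 69 to 106 (median 76) after MRT, a difference of 1.03 ± 0.26 (limma adjusted p = 0.0689) with rat 18 and 1.38 ± 0.15 without it. Ciita was singled out after its values were seen.

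**Figure D1:**
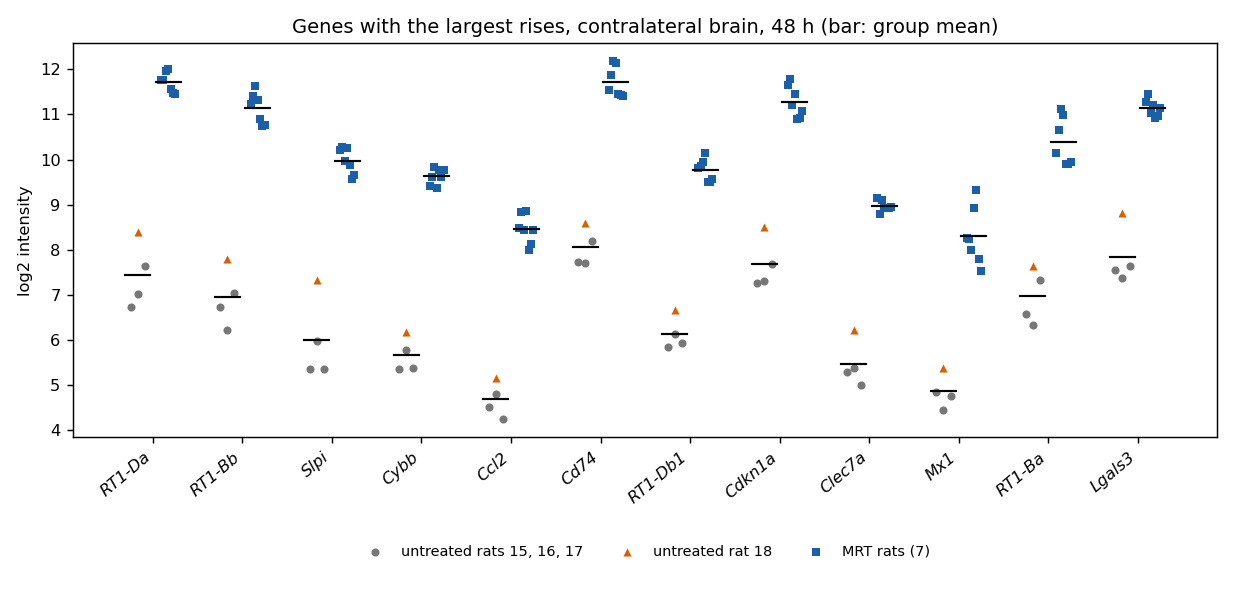
Log2 intensity (y axis) on each of the 11 arrays for the 12 genes with the largest rises (x axis), with untreated rats 15, 16 and 17 as grey circles, untreated rat 18 as an orange triangle, the 7 MRT rats as blue squares and a black bar at each group mean of all its arrays. The 12 genes were chosen among called genes whose groups do not overlap, so every MRT array lay above every untreated array by that rule. Rat 18 was the highest untreated array in each of the 12.

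Most genes listed for activated phagocytes rose. In bulk tissue, a change in the number of cells of a type and a change in RNA per cell cannot be told apart. Of 22 measured genes, 15 rose and 1 fell, with a median of 1.42, and without rat 18 17 rose and 1 fell, with a median of 1.52. Lyz2 (lysozyme) read 1519, 1667, 1735 and 2210 without treatment and 9913 to 11389 (median 10507) after MRT, a difference of 2.58 ± 0.13. Its 7 MRT values were within a narrow band, and rat 18 was again the highest untreated value. Clec7a, the beta-glucan receptor dectin-1, read 39, 42, 32 and 75 without treatment and 441 to 566 (median 489) after MRT, a difference of 3.49 ± 0.20. Gpnmb, a glycoprotein of lipid-laden phagocytes, rose by 3.25 ± 0.21 and Lgals3 (galectin-3) by 3.30 ± 0.23. Cybb, the catalytic subunit of the phagocyte NADPH oxidase, read 41, 55, 42 and 72 without treatment and 663 to 915 (median 788) after MRT, a difference of 3.95 ± 0.17. The member that fell was Ctss (cathepsin S), singled out after its values were seen, with a difference of -0.58 ± 0.13. Its call was lost in 13 of 24 alternative fits.

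Of 10 homeostatic microglial genes, 1 rose and 2 fell, with a median of -0.04, and without rat 18 1 rose and 3 fell. Tmem119 read 313, 314, 248 and 407 in the untreated rats and 127 to 225 (median 181) after MRT, and Gpr34 154, 190, 171 and 159 against 83 to 108 (median 98). The groups did not overlap in either gene, and both differences were -0.82, with SE 0.18 and 0.14. The call was lost in 9 of 24 alternative fits for Tmem119 and in 2 for Gpr34. P2ry12, the purinergic receptor by which microglia sense injury, changed its call with rat 18. It read 487, 601, 643 and 56 in the untreated rats and 215 to 352 (median 288) after MRT, so that the difference was -0.18 ± 0.51 with rat 18 and -1.02 ± 0.15 (limma adjusted p = 0.00122) without it. Aif1, a calcium-binding protein of microglia and macrophages and the member that rose, read 495, 565, 570 and 105 against 997 to 1492 (median 1152), a difference of 1.69 ± 0.37, or 1.10 ± 0.12 without rat 18, which was far below the other untreated rats. The Aif1 call was lost in 13 of 24 alternative fits, and its other probe set differed by -0.37 and was not called.

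Among 10 genes of infiltrating monocytes and macrophages, 3 rose and 0 fell, and without rat 18 6 rose. Plac8 read 59, 46, 49 and 110 without treatment and 349 to 796 (median 531) after MRT, a difference of 3.00 ± 0.27. S100a4 rose by 2.96 ± 0.20 and Mrc1, the mannose receptor of perivascular macrophages, by 1.06 ± 0.15. Of 19 T and NK cell genes, Ccl5 alone was called with rat 18 (1.49 ± 0.16) and 3 rose without it. The limma fit called 0 of 8 neutrophil genes and 0 of 5 B cell genes with rat 18, and 0 of each without it. At an unadjusted p under 0.05, 2 and 5 neutrophil genes and 1 and 0 B cell genes differed with and without rat 18. Over all 31042 probe sets, 6064 with rat 18 and 5417 without it had such a p in the limma fit. The list means were low, at 4.67 to 4.99 log2 for neutrophils in the MRT rats and 5.16 to 5.55 for B cells. The neutrophil mean of rat 18 was 5.57 and its T and NK cell mean 6.10, above the means of all other arrays. Its log2 values also spread less over probe sets than those of the others (SD 1.99 against 2.26 to 2.32). Whether its high means reflect cell content was not tested.

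**Figure D2:**
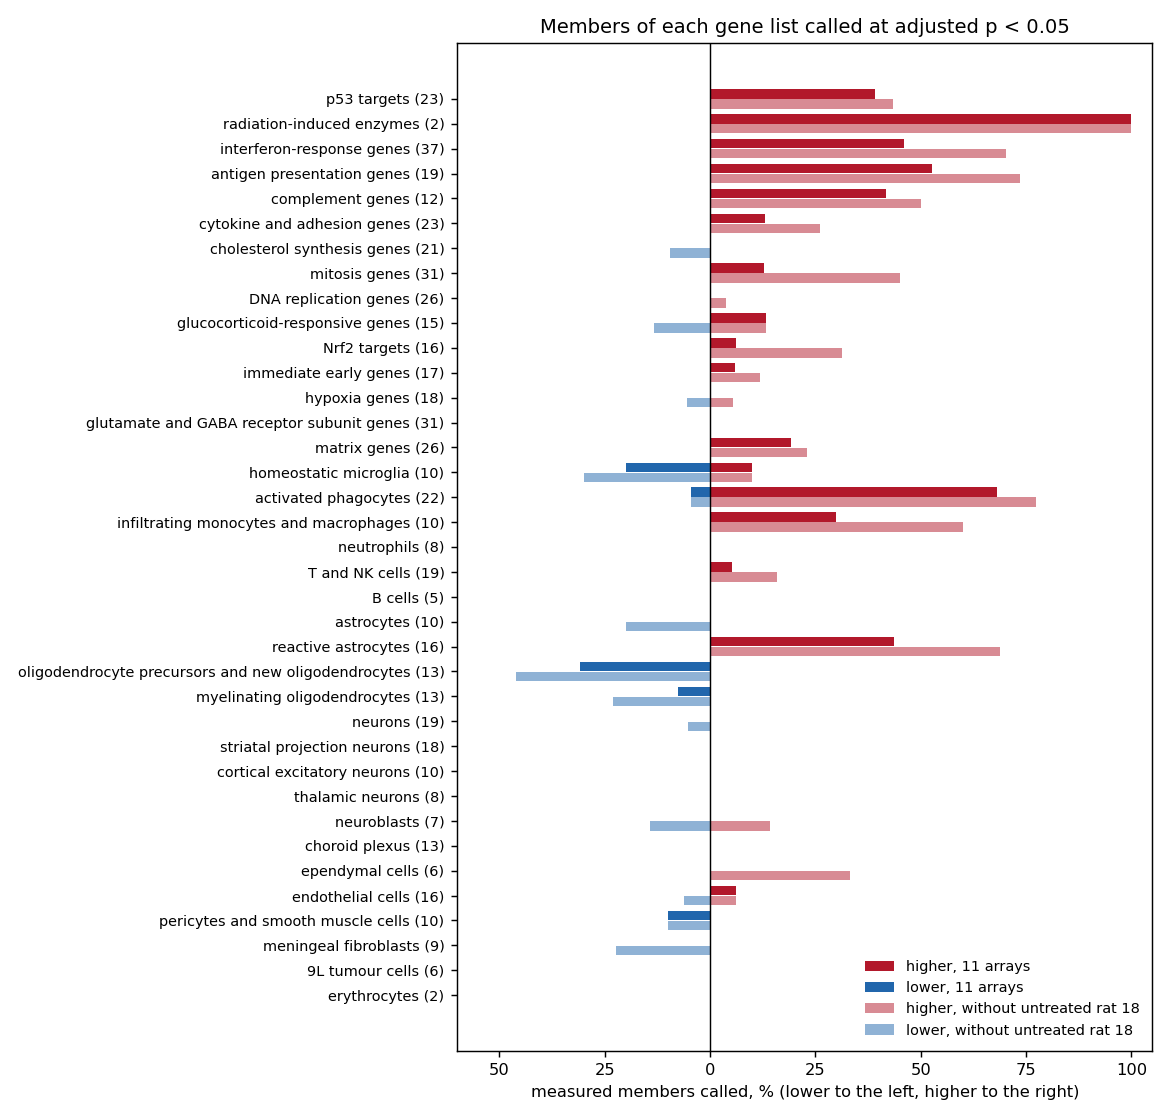
Share of the measured members of each gene list (y axis, number of members in parentheses) that the limma fit called at an adjusted p under 0.05 (x axis, percent), higher after MRT to the right in red and lower to the left in blue, with all 11 arrays in dark and without untreated rat 18 in pale bars. Activated phagocytes (15 of 22 higher) and antigen presentation genes (10 of 19 higher) had long bars to the right, and oligodendrocyte precursors (4 of 13 lower) a bar to the left, while the bars of striatal, cortical and thalamic neurons were empty.

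Of 23 measured p53 targets, 9 rose and 0 fell, with a median of 0.78, and without rat 18 10 rose, with a median of 0.55. Cdkn1a, which encodes the cell cycle inhibitor p21, read 153, 158, 207 and 365 without treatment and 1906 to 3535 (median 2360) after MRT. Its 4 untreated values were all under the lowest MRT value, which the rule for the largest rises required. The difference was 3.59 ± 0.25 (limma adjusted p = 1.34e-06), or 3.86 ± 0.19 without rat 18. A second Cdkn1a probe set was 2.97 higher. Phlda3, an inhibitor of Akt signalling, read 158, 184, 182 and 306 against 815 to 1145 (median 969), a difference of 2.24 ± 0.18. Mdm2, the ligase that degrades p53, rose by 1.17 ± 0.15, Fas, a death receptor, by 1.53 ± 0.23, Aen, a nuclease, by 1.27 ± 0.19, and Sesn2, an inhibitor of mTORC1 signalling, by 1.06 ± 0.16. Gdf15, a stress-induced cytokine, rose by 1.30 ± 0.19, Gadd45a by 1.59 ± 0.32 and the long noncoding RNA Pvt1 by 1.5 ± 0.24. The other Mdm2 probe sets differed by 1.48, which was called, and by 0.87, which was not.

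The remaining p53 target called without rat 18 was Ccng1 (cyclin G1). It read 2270, 2490, 2320 and 236 in the untreated rats and 4201 to 5637 (median 4938) after MRT. Rat 18 lay about an order of magnitude under the other untreated rats, and the difference was 1.91 ± 0.50 (limma adjusted p = 0.0866) with it and 1.08 ± 0.10 without it.

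The Cdkn1a promoter stretch is shown because it holds a p53 half-site, in capitals, in the 250 bases before the annotated start (chr20:7150691-7150770, plus strand, GRCr8).
Cdkn1a: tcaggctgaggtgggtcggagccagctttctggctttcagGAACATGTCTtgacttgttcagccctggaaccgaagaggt

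Of the 9 p53 targets that rose, 8 had a promoter sequence, and a p53 half-site was found in 3, against 7.98% of all promoters. Counted by gene, it was found in 7.38% of the measured genes with a promoter and in 14% of those called higher. The list was made up of known p53 targets, so its share is no separate evidence about the rise. The 2 enzymes listed as radiation-induced both rose. Mgmt, which removes alkyl groups from guanine, read 60, 48, 69 and 80 without treatment and 390 to 661 (median 469) after MRT, a difference of 2.90 ± 0.18, and 3.02 ± 0.16 without rat 18. Ephx1, microsomal epoxide hydrolase, read 363, 267, 530 and 270 against 1244 to 2421 (median 1609), a difference of 2.25 ± 0.23. This list of 2 genes was drawn from earlier results on these arrays and is no independent evidence.

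Of 37 measured interferon-response genes, 17 rose and 0 fell, with a median of 1.01, and without rat 18 26 rose, with a median of 1.13. Mx1, a dynamin-like antiviral GTPase, read 29, 22, 27 and 42 without treatment and 186 to 644 (median 301) after MRT, a difference of 3.43 ± 0.30. Rat 23 gave the highest MRT value of Mx1, and rats 25 and 26 the lowest ones. Gbp2, a guanylate-binding protein, read 52, 76, 82 and 120 without treatment and 440 to 730 (median 501) after MRT, a difference of 2.73 ± 0.20, and rat 23 was again the highest. Gbp4 rose by 2.03 ± 0.18. Interferon-induced promoters are known for the interferon-stimulated response element (ISRE), whose core was searched as 2 TTTC blocks with any 2 bases between them, on both strands. It was found in 13 of the 15 risen interferon-response genes that had a promoter sequence and in 3.92% of all promoters. Counted by gene, it was found in 3.21% of the measured genes with a promoter and in 16.3% of those called higher. The list was made up of known interferon-response genes, so its share is no separate evidence about the rise. The guanylate-binding protein promoters are shown up to the annotated start with the core in capitals (chr2:234005656-234005726 for Gbp2 and chr2:233978436-233978485 for Gbp4, both on the plus strand, GRCr8).
Gbp2: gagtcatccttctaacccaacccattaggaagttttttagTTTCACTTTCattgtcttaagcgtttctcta
Gbp4: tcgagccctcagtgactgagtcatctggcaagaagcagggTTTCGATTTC

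Complement, chemokine and secreted inhibitor genes were also among those that rose. Of 12 complement genes, 5 rose and 0 fell, and without rat 18 6 rose. Serping1, the C1 inhibitor, read 184, 160, 202 and 322 without treatment and 1305 to 2409 (median 1471) after MRT, a difference of 2.95 ± 0.22. C1s, the protease that C1 inhibitor blocks, rose by 2.95 ± 0.25 and C5ar1, the receptor of C5a, by 1.79 ± 0.15. Of 23 cytokine and adhesion genes, 3 rose with rat 18 and 6 without it. Ccl2, the chemokine that draws monocytes, read 23, 28, 19 and 36 without treatment and 256 to 467 (median 348) after MRT, a difference of 3.77 ± 0.21. Ccl7, also a monocyte chemokine, rose by 1.5 ± 0.30 and Icam1, a leukocyte adhesion receptor, by 1.22 ± 0.21. Rat 18 read 85 for Ccl7, inside the MRT range of 75 to 136. Slpi, a secreted inhibitor of leukocyte proteases, read 41, 63, 41 and 162 against 765 to 1236 (median 1009), a difference of 3.97 ± 0.32.

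Of 16 reactive astrocyte genes, 7 rose and 0 fell, with a median of 0.81, and 11 rose without rat 18. Gfap, the astrocyte filament protein, read 2572, 2458, 3417 and 612 in the untreated rats and 10610 to 13191 (median 11264) after MRT. Vim (vimentin) read 1092, 1460, 1635 and 382 against 5682 to 7499 (median 6870). In both genes rat 18 was the lowest of the 11 arrays, and the groups did not overlap. The differences were 2.61 ± 0.35 for Gfap and 2.74 ± 0.31 for Vim with rat 18, and 2.06 ± 0.11 and 2.28 ± 0.12 without it. Hspb1, a small heat shock protein, rose by 2.29 ± 0.14. Of 10 general astrocyte markers, 0 were called with rat 18, and 2 fell without it, with 3 and 5 at an unadjusted limma p under 0.05. Over all 31042 probe sets, 6064 and 5417 had such a p.

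Genes of the extracellular matrix that rose were 5 of 26, and 6 without rat 18. Timp1, an inhibitor of metalloproteinases, read 127, 113, 126 and 71 without treatment and 637 to 1259 (median 803) after MRT, a difference of 3.09 ± 0.23. Mmp2, a gelatinase, rose by 2.06 ± 0.21 and Postn (periostin) by 1.73 ± 0.17. The other Mmp2 probe set differed by -0.38 and was not called. Among stress genes, Mt2A (metallothionein) rose by 1.67 ± 0.21, Cebpd by 1.74 ± 0.30, Mgst1 by 1.60 ± 0.23 and Atf3 by 1.51 ± 0.22. They were the 2 of 15 glucocorticoid-responsive genes, 1 of 16 Nrf2 targets and 1 of 17 immediate early genes called with rat 18. These lists had medians of -0.23, 0.28 and -0.15. Without rat 18, 2 glucocorticoid-responsive genes rose and 2 fell, 5 Nrf2 targets rose and 2 immediate early genes rose. The medians were then -0.13, 0.21 and 0.00. The other Cebpd probe sets differed by 1.57 and -0.51, and neither was called with rat 18. Of 16 endothelial genes 1 rose, Vwf by 0.65 ± 0.15, and of 10 pericyte and smooth muscle genes 1 fell, Vtn by 0.86 ± 0.18. These calls were lost in 14 and 11 of 24 alternative fits. Without rat 18, 1 endothelial gene rose and 1 fell, and 1 pericyte and smooth muscle gene fell.

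The count of cell division genes differed with rat 18. Of 31 mitosis genes, 4 rose and 0 fell with rat 18, with a median of 0.28, and 14 rose without it, with a median of 0.56. The list mean was 6.25 to 6.53 log2 in the MRT rats, 5.66, 5.70 and 5.77 in untreated rats 15, 16 and 17, and 6.73 in rat 18, the highest of all. Whether the mean of rat 18 reflects dividing cells was not tested. Mki67, the Ki-67 antigen of cycling cells, read 35, 25, 45 and 34 without treatment and 69 to 155 (median 102) after MRT, a difference of 1.63 ± 0.22, and 1.63 ± 0.23 without rat 18. Ccna2 (cyclin A2) rose by 1.55 ± 0.22 and Ect2, needed for cytokinesis, by 1.16 ± 0.21. DNA replication genes were called in 0 of 26 cases with rat 18 and 1 of 26 without it, with 3 and 10 at an unadjusted limma p under 0.05. Over all 31042 probe sets, 6064 and 5417 had such a p. These mitosis transcripts were dim, with Ccna2 at 11 to 19 in the untreated rats and 25 to 58 after MRT.

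**Figure D3:**
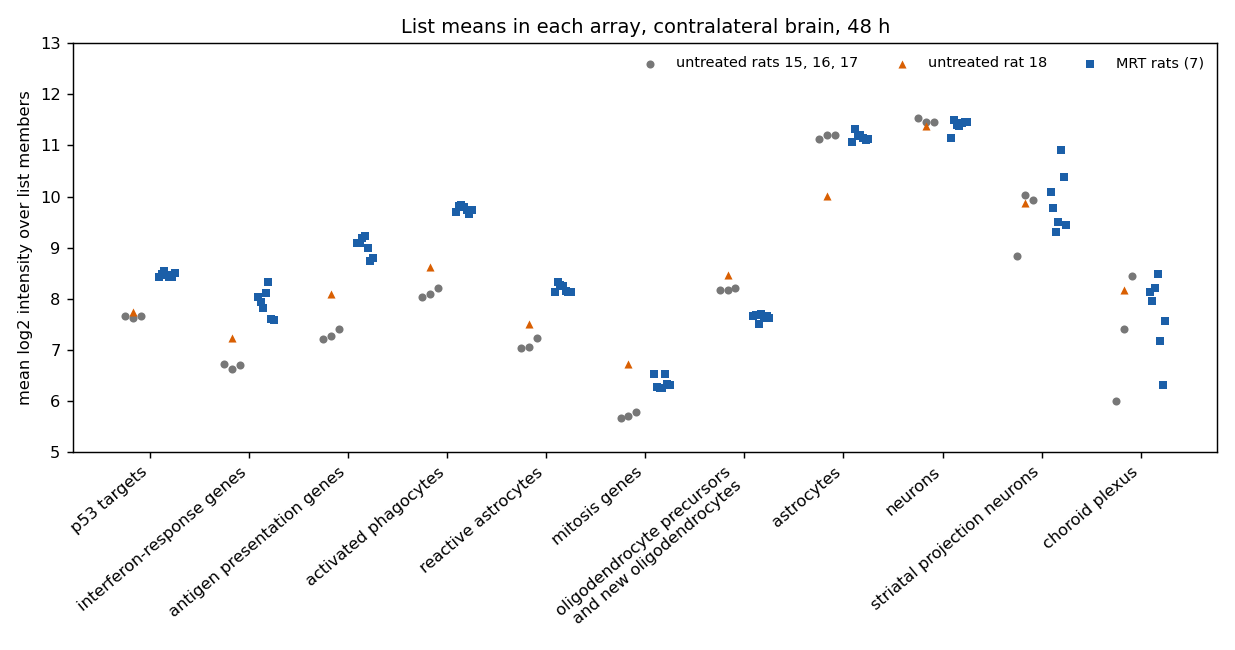
Mean log2 intensity over the members of 11 gene lists (y axis) on each of the 11 arrays, with untreated rats 15, 16 and 17 as grey circles, untreated rat 18 as orange triangles and MRT rats as blue squares. The p53, activated phagocyte and reactive astrocyte means of all 7 MRT rats lay above those of all 4 untreated rats, rat 18 was highest for mitosis (6.73) and lowest for astrocytes (10.01), and striatal and choroid plexus means were spread widely in both groups.

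Of 13 genes of precursors and newly formed oligodendrocytes, 4 fell and 0 rose, with a median of -0.67, and 6 fell without rat 18, with a median of -0.52. Pdgfra, the growth factor receptor that marks precursors, read 1415, 1375, 1571 and 1102 without treatment and 412 to 529 (median 478) after MRT. Every MRT rat was under every untreated rat, which the rule for the largest falls required. The difference was -1.51 ± 0.13 (limma adjusted p = 1.39e-05), or -1.61 ± 0.10 without rat 18. Bmp4, made by newly formed oligodendrocytes, read 193, 215, 233 and 310 against 63 to 112 (median 84), a difference of -1.48 ± 0.17. Enpp6, a marker of newly formed oligodendrocytes, fell by 0.94 ± 0.17. Bcan (brevican), a proteoglycan of the perineuronal matrix made by precursors and astrocytes, read 1775, 1267, 1463 and 1623 against 667 to 842 (median 735), a difference of -1.05 ± 0.13. Its other probe set differed by -0.66 and was not called.

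Of 13 genes of myelinating oligodendrocytes 1 fell, Opalin by 0.89 ± 0.18 (call lost in 8 of 24 alternative fits), and 3 fell without rat 18. Mal, a proteolipid of compact myelin, read 3465, 3094, 3488 and 582 in the untreated rats and 1401 to 1930 (median 1602) after MRT. Rat 18 was under all 7 MRT rats, and the difference was -0.41 ± 0.39 (limma adjusted p = 0.502) with it and -1.04 ± 0.11 (limma adjusted p = 7.28e-05) without it. Of 19 neuronal genes 0 were called with rat 18 and 1 fell without it, and in the limma fit 0 of 31 glutamate and GABA receptor genes were called either way. At an unadjusted p under 0.05 these were 2 and 6 neuronal and 8 and 6 receptor genes with and without rat 18. Of the markers of striatal (18), cortical (10) and thalamic (8) neurons and of choroid plexus (13), limma called 0 with and without rat 18, and 0 and 0, 3 and 2, 0 and 0 and 1 and 1 had an unadjusted p under 0.05. Over all 31042 probe sets, 6064 and 5417 had such a p with and without rat 18.

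The largest fall was that of Tnnc2, the troponin C of fast skeletal muscle. It read 626, 392, 441 and 523 without treatment and 94 to 151 (median 132) after MRT, a difference of -2.02 ± 0.18. The other large falls, besides Pdgfra, Bmp4 and Bcan, were those of Abhd1 (-1.28 ± 0.17), Efhd1 (-1.18 ± 0.15), Pnlip (-1.15 ± 0.17), Tlcd1 (-1.11 ± 0.19), Pmel (-1.09 ± 0.17), Fam83d (-1.04 ± 0.22), Btbd17 (-1.03 ± 0.21) and Gpt (-1.0 ± 0.16). In these 8 genes rat 18 was the highest array, and without it the differences lay between -1.08 and -0.78. The other probe sets of Abhd1 (-0.41) and Btbd17 (-0.59) were not called. Efhd1, a mitochondrial calcium-binding protein, read 539, 656, 704 and 959 against 285 to 348 (median 310). Gpt, alanine aminotransferase, read 326, 323, 276 and 450 against 140 to 197 (median 163).

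**Figure D4:**
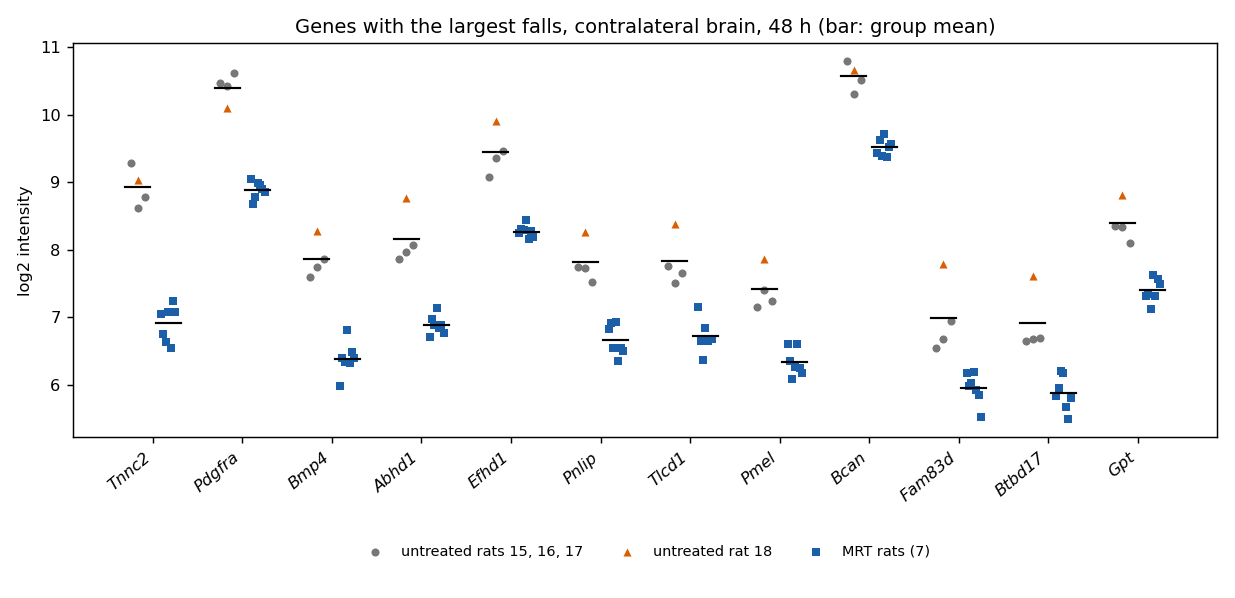
Log2 intensity (y axis) on each of the 11 arrays for the 12 genes with the largest falls (x axis), with untreated rats 15, 16 and 17 as grey circles, untreated rat 18 as an orange triangle, the 7 MRT rats as blue squares and a black bar at each group mean of all its arrays. The 12 genes were chosen among called genes whose groups do not overlap, so every MRT array lay under every untreated array by that rule. Rat 18 was the highest array in 9 of them and the lowest untreated array for Pdgfra.

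The 3 times differ in their animals, treated and untreated. Whether the effect at 48 h differed from that at 6 h or at 8 d was tested as the difference of the MRT effects over 39 contralateral arrays. Against 6 h, 238 genes (1.67%) had a higher and 406 (2.86%) a lower effect at 48 h, and without rat 18 294 (2.07%) and 193 (1.36%). Against 8 d the counts were 29 (0.204%) and 29 (0.204%), and without rat 18 39 (0.274%) and 14 (0.0985%). Over probe sets, 309 effects were higher and 882 lower than at 6 h, or 381 and 637 after quantile normalization. Against 8 d, 42 were higher and 52 lower, or 61 and 39 after quantile normalization. The cytokine and adhesion list differed from 6 h in 18 of 23 genes, all with a lower effect at 48 h, with and without rat 18. Ccl2 was 7.27 higher in MRT than in untreated rats at 6 h and 3.77 higher at 48 h, a difference of effects of -3.49 (limma adjusted p = 1.05e-07). The median Ccl2 intensity of MRT rats was 4357 at 6 h and 348 at 48 h. Interferon-response genes had a lower effect at 48 h in 10 of 37 cases and a higher one in 1, and in 9 and 2 without rat 18. Their median effect was 1.51 at 6 h, 1.01 at 48 h and 1.43 at 8 d. Against 8 d, 3 had a lower effect at 48 h and 0 a higher one, and 1 and 0 without rat 18. Gbp2 had an effect of 5.65 at 6 h and 2.73 at 48 h. Neutrophil genes had a lower effect at 48 h in 6 of 8 cases, and in 5 without rat 18.

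Other lists had higher effects at 48 h. Endothelial genes had a median effect of -1.16 at 6 h and -0.09 at 48 h, with a higher effect at 48 h in 10 of 16 genes, and in 11 without rat 18. Of 19 antigen presentation genes, 7 had a higher effect at 48 h than at 6 h and 2 a lower one, and 8 and 0 without rat 18. Mgmt was 0.64 higher at 6 h and 2.90 at 48 h, and Vim 0.12 and 2.74. Of 16 reactive astrocyte genes, Vim among them, 2 had a higher effect at 48 h than at 6 h and 4 a lower one. Without rat 18 these were 4 and 3. Mitosis genes had a higher effect at 48 h in 4 of 31 cases, and in 7 without rat 18. Of 23 p53 targets, 3 had a lower effect at 48 h, and 1 without rat 18. Cdkn1a was 3.92 higher in MRT rats at 6 h and 3.59 at 48 h, and Phlda3 2.25 and 2.24.

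Against 8 d, 5 of 19 antigen presentation genes had a higher effect at 48 h and 1 a lower one, and 6 and 0 without rat 18. In untreated rats 29 and 30 of 8 d the markers of 9L cells averaged 6.38 and 7.74 log2, against 5.23 to 5.56 in the other 8 d arrays. Without both, 28 probe sets were called against 8 d in place of 94, and without rat 30 alone 57. RT1-Da read 903 to 2123 (median 1434) in the 4 untreated rats at 8 d, above all 4 untreated rats at 48 h, and 2205 to 4953 (median 3294.5) in the 6 MRT rats at 8 d, a range that holds the MRT range of 48 h. The effect was thus 1.25 at 8 d and 4.26 at 48 h with overlapping MRT levels. Rat 30 read 903 for RT1-Da, the lowest of the 4. Without rats 29 and 30 the difference of effects was 3.07 (limma adjusted p = 0.00663) against 3.01 with them, and it remained called for RT1-Bb, RT1-Ba, RT1-Db1 and Cd74. At 15 d, RT1-Da read 2902 to 8195 (median 5307.5) in 4 MRT rats. Vim read 2980 to 8526 (median 3723.5) in untreated rats at 8 d, the highest in rat 30, and its effect was 0.31 at 8 d. The Vim difference of effects was 2.44 with and 2.04 without rats 29 and 30 (limma adjusted p = 0.00663), and that of S100a4 was 2.84 and 1.84 (limma adjusted p = 0.0367). Timp1 was no longer called, at 2.46 (limma adjusted p = 0.0682). The part of tumour cell RNA in these differences was not tested further. Mgmt read 44 to 60 (median 47.5) in untreated and 371 to 488 (median 453.5) in MRT rats at 8 d. Pdgfra read 326 to 478 (median 439) in the MRT rats at 8 d, and its effect was -2.11 there and -1.51 at 48 h.

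**Figure D5:**
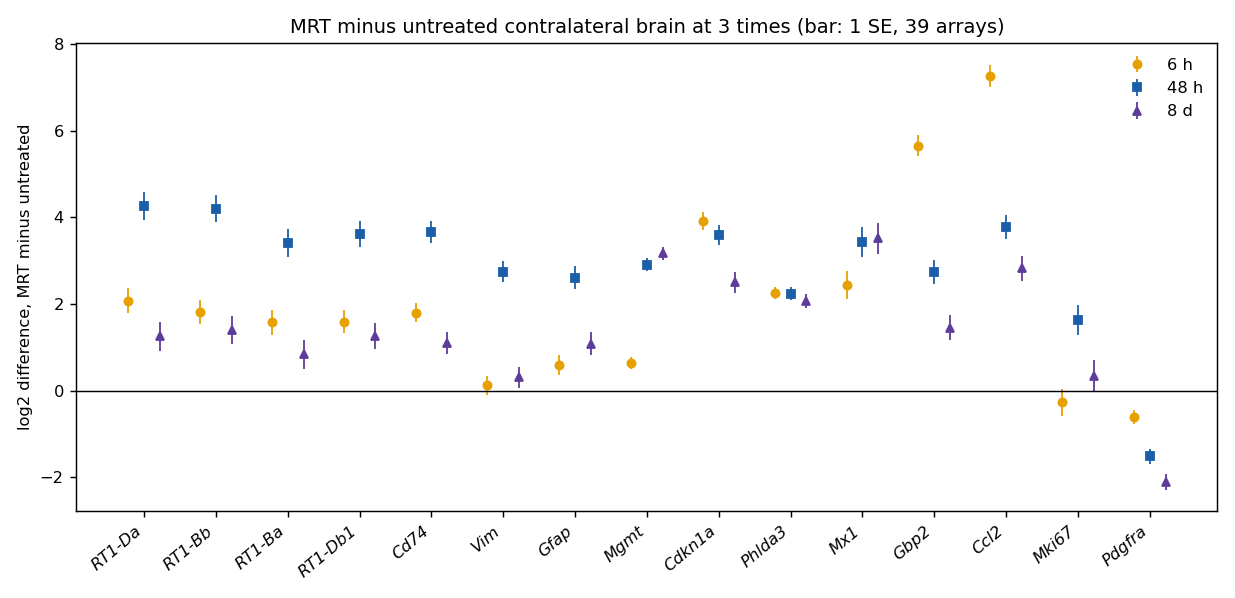
Log2 difference, MRT minus untreated contralateral brain (y axis), at 6 h (yellow circles), 48 h (blue squares) and 8 d (purple triangles) for 15 genes (x axis), with bars of 1 SE from the limma fit over 39 arrays. The class II genes and Vim had larger differences at 48 h than at 6 h and 8 d, Ccl2 and Gbp2 were highest at 6 h, Mgmt was high at 48 h (2.90) and 8 d (3.17), and Pdgfra was under 0 at all 3 times.

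The 3 broad beam rats at 48 h share the untreated controls and were processed under a different note, so their levels are given side by side without a test. RT1-Da read 741 to 811 (median 804) after the broad beam, under the lowest MRT value of 2798, and Ccl2 46 to 63 (median 59), under the lowest MRT value of 256. Cdkn1a read 1583 to 2192 (median 1693), Mgmt 312 to 485 (median 360) and Pdgfra 431 to 533 (median 452), ranges that overlap those of the MRT rats.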

How the data were processed

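Contralateral brain at 48 h was analysed in 7 MRT and 4 untreated rats, 1 array each, with a rat number of its own in each title. The sample descriptions speak of 6 treated rats, and all 7 titled arrays were used. Per the labels' protocols, the authors isolated total RNA (mirVana) and put 200 ng of it through 3' IVT Express labelling. As deposited, each value is a linear intensity already normalized by the submitters, a whole number from 7 to 27837. The submitters' processing notes name Affymetrix Expression Console, MAS5 and RMA, and for the BB arrays RMA alone, with no versions. Array medians ran from 116 to 165 over the series, and the number of arrays limits the precision. Columns of no sample numbered 0.

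Here log2 was taken and group means were fitted with limma 3.58.1 in R 4.3.3 (lmFit, eBayes with an intensity trend) on the 11 arrays and again without rat 18, over 31042 probe sets, 57 control probe sets being left out. Of these, 20826 carry 1 gene symbol in the platform annotation, 436 several and 9780 none. They name 14217 genes, of which 4525 have more than 1 probe set and are shown by the probe set with the highest mean across the 115 arrays. Of 69 called genes with other probe sets, 15 had another one called in the same direction and 0 in the opposite direction. Time comparisons are contrasts of 39 arrays.

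On simulated data of the 11 arrays, with 50 of 31042 probe sets changed at each size, changes of 0.5, 1, 2 and 3 log2 were recovered in 6, 54, 94 and 98 percent of cases, with 6 false calls among 132. Leaving out rat 18, recovery was 38, 80, 100 and 100 percent, and 8 of 167 calls were false. The simulated noise was independent between probe sets, with no shift of a whole array, so these rates may not hold for the real arrays.

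The members, the 37 lists (15 pathway and 22 cell type lists, 563 of 641 genes measured) and the rules were chosen with earlier results of these data known. Genes were named by rule: the 12 largest rises and falls called with and without rat 18 whose groups did not overlap, up to 3 called members per list, and any p53 target, of which the 10 called ones are given. Ciita, Ctss and P2ry12 were added after their values were seen. Alternatives changed normalization, the filter, the variance prior, array weights, covariates and the arrays fitted. Promoters are RefSeq's (GRCr8, 300 bases). Other tools were Python 3.11.15, pandas 2.3.3 and matplotlib 3.10.9.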

Additional observations from a re-analysis of the deposited data

Results flagged for a closer look

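Among 144 groups of 4 or 7 arrays, 9 held a value far from the others of its group, and chance flags about 1 in 20 groups. Of these, 8 were untreated rat 18: Aif1 at 105, Ccng1 at 236, Mal at 582 and P2ry12 at 56 lay far below the other untreated rats, and Btbd17 at 196, Enpp6 at 294, Opalin at 1799 and Sesn2 at 433 far above them. The remaining one was Gbp2 in MRT rat 23, at 730.

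For 34 of the genes whose values are given, the limma test of the difference between the MRT effects at 48 h and at 6 h passed the threshold both with and without rat 18, and for 41 with rat 18. Rat 18 read lowest of the untreated rats at 48 h for P2ry12, Vim, Aif1 and Gfap. Without it the difference of effects fell to 2.16 for Vim, 1.52 for Aif1 and 1.47 for Gfap. For RT1-Bb it rose to 2.66 and for RT1-Da to 2.50. The values that follow are those with rat 18. The 48 h effect was higher, in log2, for P2ry12 (3.11), Vim (2.62), RT1-Bb (2.38), Mgmt (2.26), RT1-Da (2.19), Aif1 (2.11), Postn (2.10), RT1-Db1 (2.03), Gfap (2.02), Gpnmb (1.97), Mrc1 (1.92), Mki67 (1.90), Ccna2 (1.87), Cd74 (1.86), Cybb (1.84), RT1-Ba (1.83), Ephx1 (1.81), S100a4 (1.77), Clec7a (1.65), Mmp2 (1.57), C1s (1.53), Lgals3 (1.51), Serping1 (1.48), Vwf (1.36), Mgst1 (1.24) and C5ar1 (1.02). It was lower for Ccl2 (-3.49), Ccl7 (-3.03), Gbp2 (-2.92), Icam1 (-2.43), Atf3 (-2.27), Fas (-1.60), Tnnc2 (-1.43) and Pdgfra (-0.90).

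Against 8 d, the 48 h effect was higher for 12 of them: Plac8 (3.30), RT1-Da (3.01), S100a4 (2.84), RT1-Bb (2.79), RT1-Ba (2.57), Cd74 (2.55), Timp1 (2.51), Vim (2.44), RT1-Db1 (2.35), C1s (1.83), Mt2A (1.29) and Gpnmb (1.22). Of these, 10 remained called without untreated rat 30 of 8 d and 7 without rats 29 and 30, those of the class II genes, Cd74, Vim and S100a4.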

How the results depend on the processing

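The count of 462 probe sets became 771 after quantile normalization, 1108 with arrays shifted to a common median and 1937 with array weights. It was 7629 in a fit on 39 arrays (1958 higher, 5671 lower), 1722 in the same fit without rat 18 (1043 and 679) and 10220 in a fit on 56 arrays (2692 and 7528), so that most calls were lower in the fits on 39 and 56 arrays and higher in the others. Leaving out 1 array at a time gave 326 to 1294, the highest without untreated rat 18. Without rat 18 the count of 1294 ranged from 818 to 1317 when another array was left out, with 818 without untreated rat 15 and 821 without untreated rat 16. These further omissions were chosen after seeing the data. The comparison with 6 h gave 1191 probe sets, 730 without rat 18 and 2480 in the fit on 56 arrays. The comparison with 8 d gave 94, 77 without rat 18, 248 with array weights, 268 in the fit on 56 arrays, 57 without untreated rat 30 of 8 d and 28 without rats 29 and 30, also chosen after seeing the data. Of 72 genes, 55 were called under each of 24 alternatives, and Ccna2 under the 23 that could be run for it, being among the dimmest probe sets. All 72 had been chosen as called with or without rat 18, so the 55 are no general measure of how well calls hold. The call was lost by Vwf in 14, Aif1 and Ctss in 13, Vtn in 11, Tmem119 in 9, Opalin in 8, Fam83d in 7, Ccl7 and Gadd45a in 3, Gpr34 in 2 and Btbd17 and Ect2 in 1. P2ry12 changed sign, at 0.02, 0.13 and 0.16 without untreated rat 15, 16 or 17 and -1.02 without rat 18. The cause of these shifts was not tested. No paired analysis was possible because MRT and untreated groups share no rat numbers. On the simulated data, which had no whole-array shift, a change of 0.5 log2 was recovered in 6 percent of cases with rat 18. Without rat 18 it was 38 percent, so small differences were mostly not detectable in such data.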
